A study of Mus musculus with 6 samples.

Results

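The genes of fatty acid uptake and oxidation, electron transfer from fatty acids, ketone body use and their regulators were examined on 6 Illumina bead arrays of mouse muscle. The list held 35 gene symbols and was applied to the array annotation by symbol, which gave 62 probes for 34 of the 35 genes, out of 19057 named genes on the array. Acsl1 had no probe under its own name and has no value here. The miR-214 knockout (KO) groups came from mice without the microRNA miR-214 and the wild-type (WT) groups from mice that carry it. Each genotype was sampled as adult tibialis anterior (8 weeks of age, a fast muscle of the lower leg), adult heart (8 weeks) and P14 heart (postnatal day 14). Each of the 6 groups was a single array of material pooled from 3 mice. All mice were labelled male and of mixed strain background, and no treatment was labelled. The labels do not say how the deletion was made. Values are normalized log2 intensities of the brightest probe of each gene, and they can be compared between arrays for a gene but not between genes.

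In beta oxidation, fatty acids enter the cell, are tied to coenzyme A, cross into the mitochondrion as carnitine esters and are shortened in a repeated cycle of dehydrogenation, hydration, a further dehydrogenation and thiolysis. Electrons of the first dehydrogenation pass through the electron transfer flavoprotein to the respiratory chain. Heart muscle depends heavily on this pathway from the weeks after birth onward and also burns ketone bodies, while fast glycolytic muscle relies more on glucose. The nuclear receptors Ppara and Esrra with their coactivator Ppargc1a are known activators of these genes.

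The deleted microRNA has no probe here, and its level could not be used to check the labels. Its mature forms are shown because their loss is what separates the KO from the WT groups. The sequences are those of RefSeq (GRCm38.p6), with the seed (bases 2 to 8) in capitals.
mmu-miR-214-5p: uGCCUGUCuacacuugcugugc
mmu-miR-214-3p: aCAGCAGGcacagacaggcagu

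Between 14892 and 17979 of 45281 probes were detected on an array (detection p under 0.01), with a median of 43 or 44 beads per probe. The tissue labels were checked against muscle markers. Myh6, the alpha myosin heavy chain of heart, read 5.99 in KO and 5.62 in WT tibialis anterior and between 14.77 and 14.90 on the 4 heart arrays. Myh4, the fast myosin heavy chain, read 13.57 in KO and 13.65 in WT tibialis anterior and between 4.27 and 5.19 in hearts. The male label was not borne out. Xist was detected on all 6 arrays (9.62 to 10.65), and the Y-linked Eif2s3y was detected only on the P14 WT heart array (8.09, against 4.20 to 4.40 on the others). The P14 KO and WT arrays thus differed in a Y-linked gene. The part of sex in the differences between genotypes and between ages was not tested. Markers of other tissues also differed within pairs. The 9 fast fibre genes summed to a normalized intensity of 4544 in KO and 577.3 in WT P14 heart, and to 1430 in KO and 254.2 in WT adult heart. All 8 hepatocyte genes were higher on the KO than on the WT tibialis anterior array, with sums of 8447 in KO and 1178 in WT. All 5 adipocyte genes detected in that pair were also higher on the KO array, among them Adipoq (8.78 in KO and 6.21 in WT), Scd1 (10.88 in KO and 8.80 in WT), Lep (7.97 in KO and 5.99 in WT) and Cidec (7.02 in KO and 5.21 in WT, where it was not detected), while Plin1 was not detected in either. Of the slow fibre genes 4 of 5 detected in the tibialis anterior pair were higher in KO, among them Tnnc1 (9.84 in KO and 8.01 in WT). Myl3 was lower (12.85 in KO and 13.49 in WT), and the list summed to 10682 in KO and 12950 in WT. The part of these tissues and fibre types in the differences between KO and WT was not tested. Results for the members are given with each array left out in turn where that changed a call.

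All 34 genes were detected on at least 2 arrays and so entered the fit across 10271 genes, and 30 were detected on all 6 arrays. The exceptions were Cd36, detected only on the WT P14 and WT adult heart arrays, Lipe and Ppara, not detected in tibialis anterior, and Bdh1, not detected in P14 heart. Of the 34 genes 19 had more than 1 probe. For 12 of them another probe was detected on all 6 arrays, 17 such probes in total. All 17 had the sign of the probe used for tibialis anterior minus adult heart, and 12 of 17 had it for adult minus P14 heart.

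**Figure D1:**
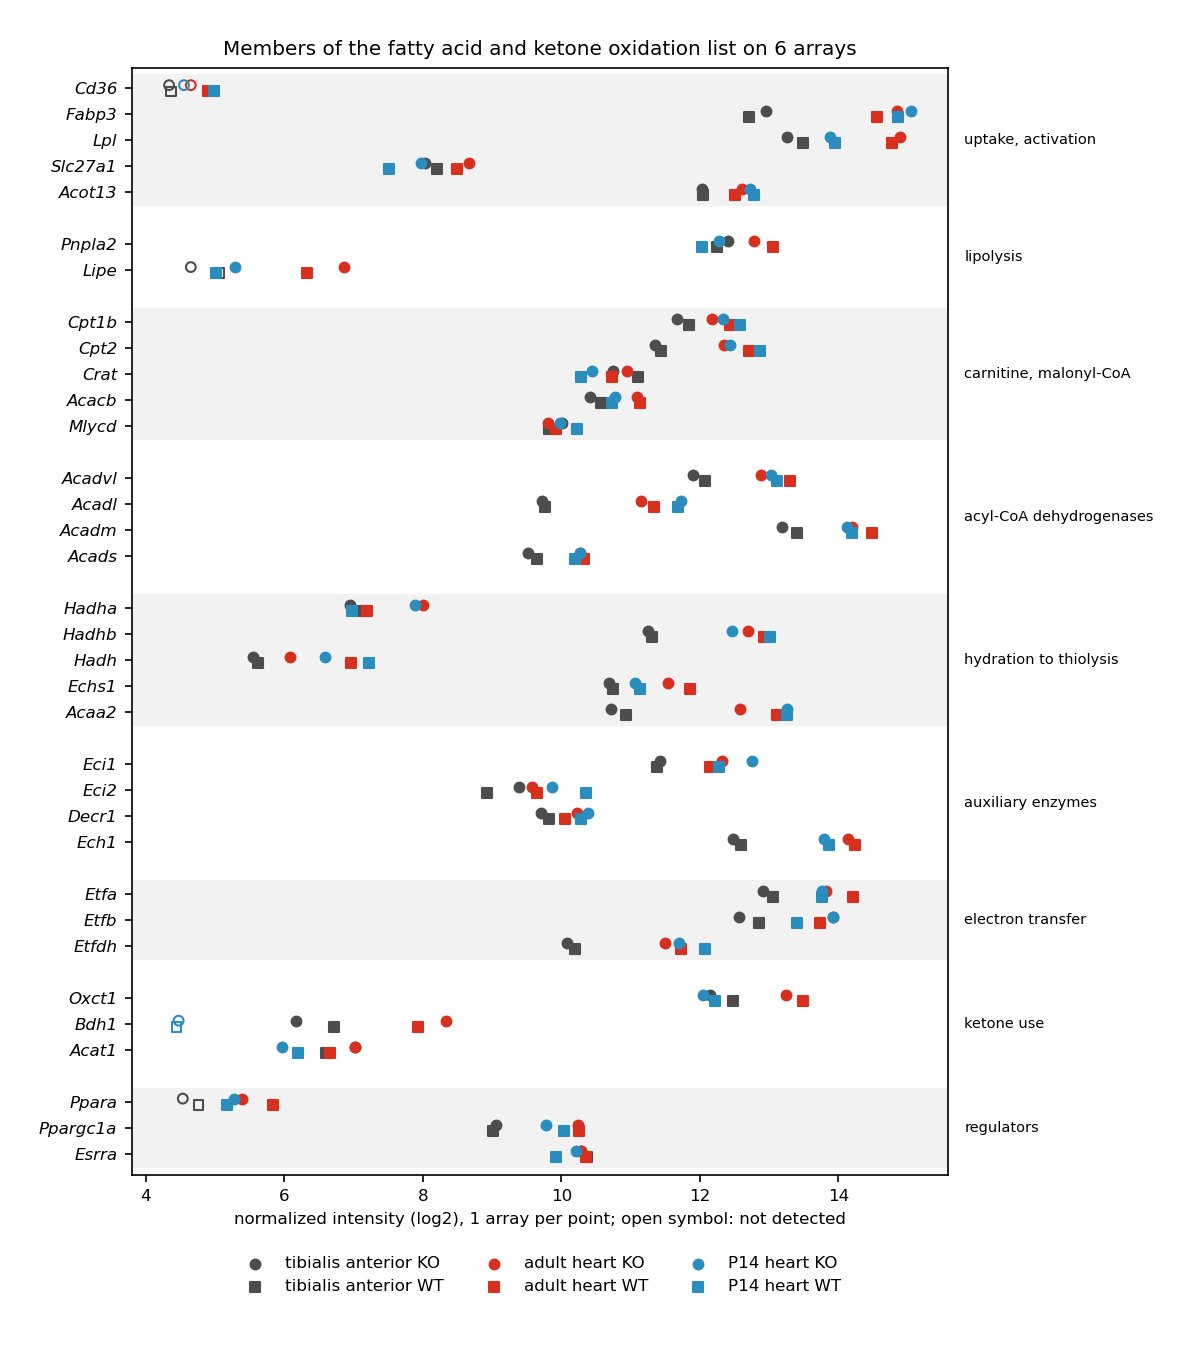
Normalized log2 intensity of the 34 measured genes (rows, grouped by role) on the 6 arrays, with circles for KO, squares for WT, colours for the setting and open symbols for values that were not detected. In most rows the tibialis anterior symbols lie left of both adult heart symbols, while KO and WT symbols of a colour lie close together.

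The members were lower in tibialis anterior than in adult heart for most genes of the list. At an adjusted p under 0.05 (limma across 10271 genes, Benjamini-Hochberg) and at least 2-fold, 16 of 34 were lower and 0 were higher in tibialis anterior. Of all genes tested 10.6% were lower and 8.46% higher by the same rule. Without the fold requirement 25 of the 34 were lower, against 23.5% of all genes, and 0 were higher, against 19.6%. The difference was below 0 for 31 members (53.2% of all genes), with a median of -0.97 on the log2 scale, against a median of -0.052 over all genes. Both tibialis anterior arrays lay below both adult heart arrays for 30 of 34 members, which was so for 38.8% of all genes. Since these are whole tissues, fewer cells of a type and less RNA per cell cannot be told apart. When arrays were centred on their medians instead of quantile normalized, the median of all genes moved to -0.25 and that of the members was -0.92, and the calls over all genes were 651 higher and 1542 lower, against 869 and 1092 here.

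Among genes of uptake and activation, 2 of 5 passed both thresholds. Fabp3, the fatty acid binding protein of heart and muscle cytosol, read 12.95 in KO and 12.71 in WT tibialis anterior, 14.85 in KO and 14.55 in WT adult heart, and 15.05 in KO and 14.86 in WT P14 heart. The tibialis anterior arrays were far below all 4 hearts, 3.64-fold lower than adult heart (log2 difference -1.87, SE 0.15, adjusted p = 4.12e-05). Its heart values lie near the highest value of any array (15.24), and whether differences are compressed there was not tested. Lpl, the lipase that frees fatty acids from circulating triglyceride, read 13.25 in KO and 13.48 in WT tibialis anterior, 14.89 in KO and 14.77 in WT adult heart, and 13.87 in KO and 13.94 in WT P14 heart. It was 2.75-fold lower in tibialis anterior (log2 difference -1.46, SE 0.16, adjusted p = 2.20e-04), with the P14 hearts between the adult groups, although the mean over its detected probes missed 2-fold at -0.88. Slc27a1, a fatty acid transport protein of the cell membrane, read 8.03 in KO and 8.20 in WT tibialis anterior, 8.67 in KO and 8.50 in WT adult heart, and 7.98 in KO and 7.52 in WT P14 heart. Its tibialis anterior values lay below the adult hearts by less than the test could call (log2 difference -0.47, adjusted p = 0.0753). The fatty acid translocase Cd36 was near background on its only probe. It read 4.34 in KO and 4.37 in WT tibialis anterior, 4.65 in KO and 4.90 in WT adult heart, and 4.55 in KO and 4.98 in WT P14 heart, and no fold is given because only WT hearts were above background. Acot13, an acyl-CoA thioesterase, was lower by a small step (log2 difference -0.52, adjusted p = 0.0172).

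Both lipolysis genes were lower in tibialis anterior at an adjusted p under 0.05, and Lipe passed 2-fold. Lipe, hormone-sensitive lipase, read 4.65 in KO and 5.05 in WT tibialis anterior, 6.87 in KO and 6.33 in WT adult heart, and 5.28 in KO and 5.01 in WT P14 heart. Since both tibialis anterior values were not detected it was at least 2.62-fold lower there (adjusted p = 9.63e-04), a call lost without background correction (-0.90). Pnpla2, the adipose triglyceride lipase that starts the breakdown of stored fat, read 12.40 in KO and 12.25 in WT tibialis anterior, 12.78 in KO and 13.06 in WT adult heart, and 12.28 in KO and 12.03 in WT P14 heart. The 2 tibialis anterior values lay below both adult hearts and near the upper of the 2 P14 values (log2 difference from adult heart -0.59, adjusted p = 0.022). Several fat markers were also lower in tibialis anterior. Adipoq read 8.78 in KO and 6.21 in WT tibialis anterior, against 10.12 in KO and 9.64 in WT adult heart. Cidec read 7.02 in KO and 5.21 in WT tibialis anterior, against 8.94 in KO and 8.55 in WT adult heart. The brown fat gene Ucp1 was not detected in tibialis anterior. Lep was not lower (7.97 in KO and 5.99 in WT tibialis anterior, against 6.35 in KO and 5.97 in WT adult heart). The part of fat in the tissue differences of Lipe, Pnpla2 and Lpl was not tested, and the sums of the list are given with the comparison of ages.

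Of the 5 genes of the carnitine shuttle and malonyl-CoA, Cpt2 alone was called. Cpt2, the carnitine palmitoyltransferase of the inner mitochondrial membrane, read 11.35 in KO and 11.44 in WT tibialis anterior, 12.34 in KO and 12.70 in WT adult heart, and 12.44 in KO and 12.87 in WT P14 heart. It was 2.19-fold lower in tibialis anterior (log2 difference -1.13, SE 0.15, adjusted p = 6.08e-04), and its 2 other probes differed by -0.94 and -1.26. Without the WT tibialis anterior array its difference was -0.97, just short of 2-fold. Cpt1b, the muscle form of the outer membrane enzyme, was lower by less than 2-fold (log2 difference -0.55, adjusted p = 0.0122). Acacb, which makes the Cpt1 inhibitor malonyl-CoA, differed by -0.62 (adjusted p = 0.00706). The remaining pair did not pass the test. Mlycd, which removes malonyl-CoA, read 10.01 in KO and 9.82 in WT tibialis anterior, 9.81 in KO and 9.92 in WT adult heart, and 9.97 in KO and 10.23 in WT P14 heart. Crat, the carnitine acetyltransferase, read 10.74 in KO and 11.11 in WT tibialis anterior, 10.95 in KO and 10.73 in WT adult heart, and 10.44 in KO and 10.28 in WT P14 heart. For both genes the tibialis anterior and adult heart values overlapped, and the differences were 0.052 for Mlycd and 0.082 for Crat.

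The acyl-CoA dehydrogenases, which open each cycle for chains of a given length, were all lower in tibialis anterior at an adjusted p under 0.05, and 3 of 4 by at least 2-fold. Acadl, the long-chain enzyme, read 9.72 in KO and 9.76 in WT tibialis anterior, 11.16 in KO and 11.34 in WT adult heart, and 11.73 in KO and 11.68 in WT P14 heart. Of the 4 it differed most (2.84-fold lower, log2 difference -1.51, SE 0.14, adjusted p = 7.82e-05), and its values were higher in P14 than in adult hearts. Acadvl, the very long-chain enzyme, read 11.90 in KO and 12.07 in WT tibialis anterior, 12.88 in KO and 13.30 in WT adult heart, and 13.02 in KO and 13.11 in WT P14 heart. It was 2.15-fold lower (log2 difference -1.11, SE 0.15, adjusted p = 7.03e-04). Acadm, the medium-chain enzyme, read 13.18 in KO and 13.40 in WT tibialis anterior, 14.20 in KO and 14.49 in WT adult heart, and 14.13 in KO and 14.20 in WT P14 heart. It was 2.08-fold lower (log2 difference -1.06, SE 0.15, adjusted p = 9.68e-04). Both sit close to the 2-fold line, at -0.96 for Acadvl and -0.98 for Acadm without the WT adult heart array. Acads, the short-chain enzyme, read 9.52 in KO and 9.65 in WT tibialis anterior, 10.27 in KO and 10.33 in WT adult heart, and 10.27 in KO and 10.20 in WT P14 heart, and its difference of -0.72 (adjusted p = 0.00367) stayed under 2-fold.

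The later steps of the cycle held the member with the largest difference between the tissues. Acaa2, the mitochondrial 3-ketoacyl-CoA thiolase, read 10.72 in KO and 10.93 in WT tibialis anterior, 12.58 in KO and 13.11 in WT adult heart, and 13.26 in KO and 13.26 in WT P14 heart. It was 4.05-fold lower in tibialis anterior (log2 difference -2.02, SE 0.16, adjusted p = 4.28e-05), and its 3 other probes differed by -1.94, -1.97 and -1.89. Hadhb, the beta subunit of the mitochondrial trifunctional protein, read 11.26 in KO and 11.31 in WT tibialis anterior, 12.70 in KO and 12.92 in WT adult heart, and 12.46 in KO and 13.02 in WT P14 heart. It was 2.88-fold lower (log2 difference -1.53, SE 0.16, adjusted p = 1.84e-04). Its partner, the alpha subunit Hadha, read 6.95 in KO and 7.14 in WT tibialis anterior, 8.00 in KO and 7.20 in WT adult heart, and 7.89 in KO and 6.98 in WT P14 heart. Here the WT tibialis anterior and WT adult heart arrays were almost equal and only the KO arrays were apart, so that the difference of -0.55 was not called (adjusted p = 0.131) and reached -1.07 without the WT tibialis anterior array. Hadh, the short-chain hydroxyacyl-CoA dehydrogenase, read 5.54 in KO and 5.62 in WT tibialis anterior, 6.08 in KO and 6.96 in WT adult heart, and 6.60 in KO and 7.22 in WT P14 heart. Its difference was -0.94 (adjusted p = 0.0118), and that of the hydratase Echs1 was -0.97 (adjusted p = 9.52e-04), both just under 2-fold. Leaving out the KO adult heart array took Hadh to -1.20 and Echs1 to -1.10, and leaving out the KO tibialis anterior array took Hadh to -1.27 and Echs1 to -1.04.

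Auxiliary enzymes handle double bonds of unsaturated fatty acids, and 1 of 4 was called. Ech1, a dienoyl-CoA isomerase, read 12.48 in KO and 12.59 in WT tibialis anterior, 14.14 in KO and 14.24 in WT adult heart, and 13.79 in KO and 13.87 in WT P14 heart. It was 3.15-fold lower in tibialis anterior (log2 difference -1.65, SE 0.14, adjusted p = 6.03e-05). Eci1, an enoyl-CoA isomerase, read 11.42 in KO and 11.39 in WT tibialis anterior, 12.32 in KO and 12.14 in WT adult heart, and 12.75 in KO and 12.28 in WT P14 heart, and its difference of -0.83 (adjusted p = 0.00348) was under 2-fold. The related isomerase Eci2 read 9.39 in KO and 8.93 in WT tibialis anterior, 9.58 in KO and 9.65 in WT adult heart, and 9.86 in KO and 10.35 in WT P14 heart. Decr1, the dienoyl-CoA reductase, read 9.70 in KO and 9.82 in WT tibialis anterior, 10.23 in KO and 10.06 in WT adult heart, and 10.39 in KO and 10.28 in WT P14 heart. Neither Eci2 (-0.46, adjusted p = 0.119) nor Decr1 (-0.38, adjusted p = 0.0605) passed the test, although both tibialis anterior values lay below both adult heart values for each.

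All 3 genes of the electron transfer flavoprotein system were called lower in tibialis anterior. Etfdh, the oxidoreductase that hands its electrons to ubiquinone, read 10.09 in KO and 10.20 in WT tibialis anterior, 11.50 in KO and 11.72 in WT adult heart, and 11.70 in KO and 12.08 in WT P14 heart. It was 2.76-fold lower (log2 difference -1.46, SE 0.14, adjusted p = 1.01e-04). The mean over its probes differed by -0.56, because its 3 other probes were dim and differed by -0.35, -0.19 and -0.22. Etfa, the alpha subunit, read 12.91 in KO and 13.06 in WT tibialis anterior, 13.82 in KO and 14.21 in WT adult heart, and 13.77 in KO and 13.76 in WT P14 heart. It was 2.05-fold lower (log2 difference -1.03, SE 0.16, adjusted p = 0.00138), and -0.88 without the WT adult heart array. Etfb, the beta subunit, read 12.56 in KO and 12.85 in WT tibialis anterior, 13.93 in KO and 13.73 in WT adult heart, and 13.93 in KO and 13.40 in WT P14 heart. It was 2.17-fold lower (log2 difference -1.12, SE 0.20, adjusted p = 0.00299), and -0.80 without the KO tibialis anterior array.

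**Figure D2:**
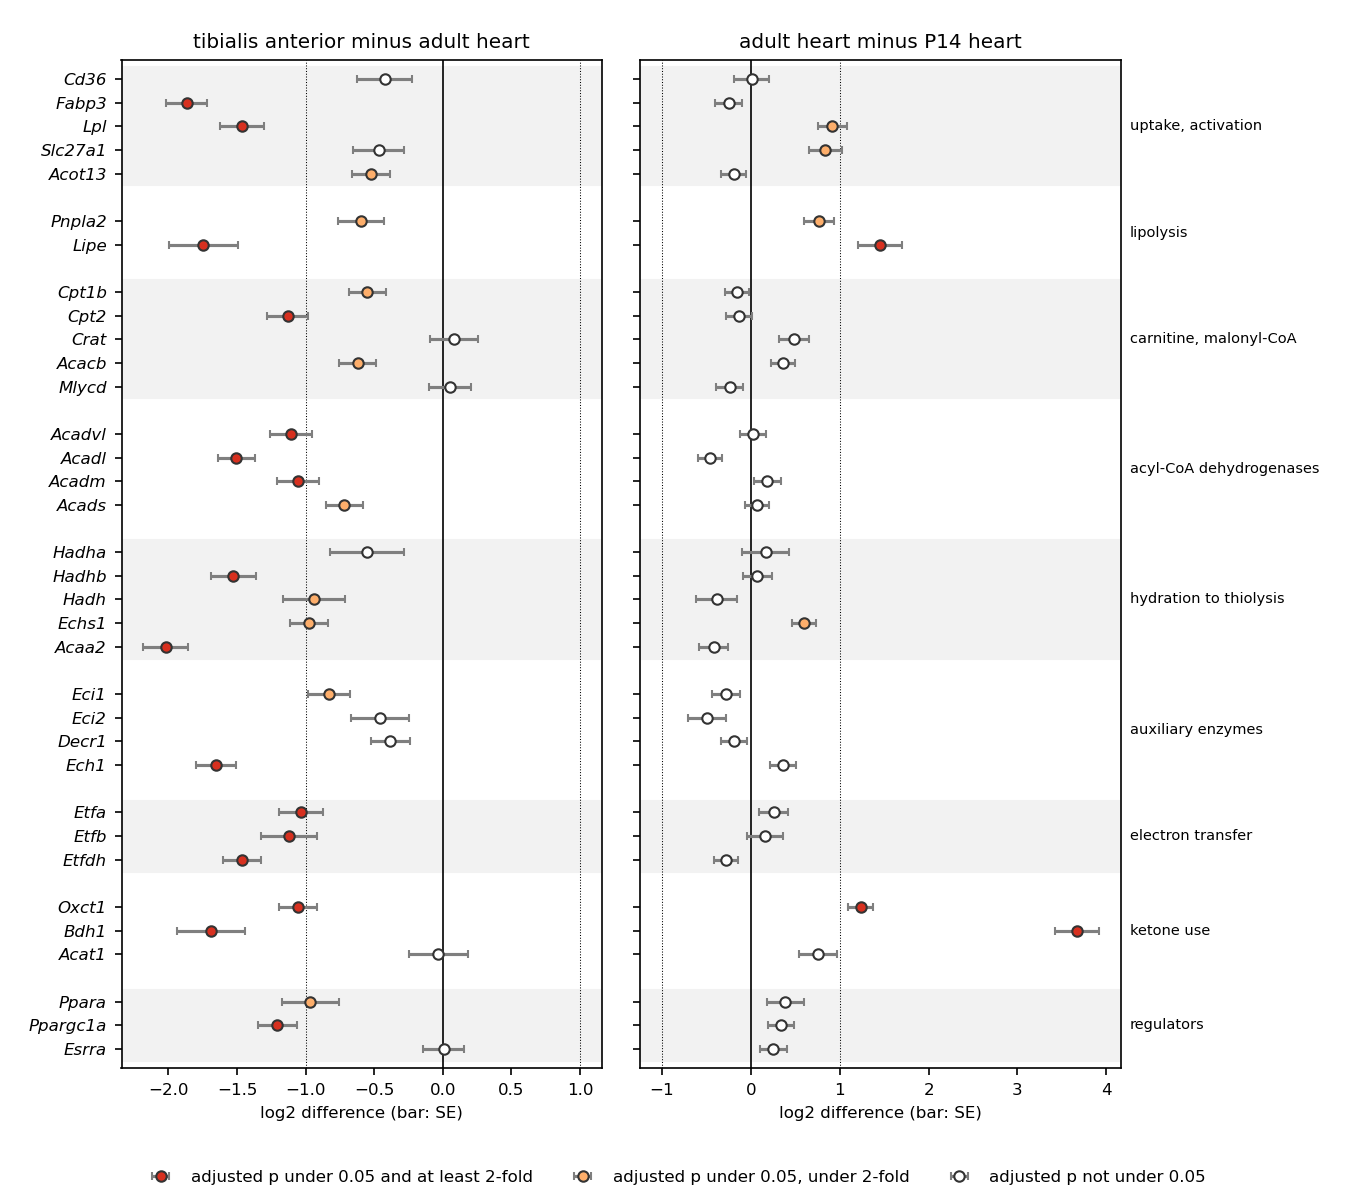
Log2 difference of each gene (rows, by role) between tibialis anterior and adult heart on the left and between adult and P14 heart on the right, with the standard error of the fit as bars and dotted lines at 2-fold. On the left 16 filled red points lie beyond 2-fold below 0 and none above, and on the right only Lipe, Oxct1 and Bdh1 are red. The points of Lipe and Ppara on the left and of Bdh1 on the right stand at the fitted value although 1 group was not detected, and the text gives their bounds. Of the arrays compared on the left, Cd36 was detected only on that of WT adult heart, and no fold is given for it.

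Ketone body use had 2 of 3 genes called lower in tibialis anterior, and these 2 were also higher in adult than in P14 heart. Bdh1, the mitochondrial hydroxybutyrate dehydrogenase that starts ketone oxidation, read 6.17 in KO and 6.71 in WT tibialis anterior, 8.33 in KO and 7.93 in WT adult heart, and 4.48 in KO and 4.45 in WT P14 heart. Both adult hearts were above both tibialis anterior arrays (log2 difference -1.69, SE 0.25, adjusted p = 0.00101), and the P14 values were not detected. It was at least 10.2-fold higher in adult than in P14 heart (adjusted p = 1.65e-04), and this bound was above the age difference of every other member. Oxct1, which activates acetoacetate with coenzyme A from succinyl-CoA, read 12.14 in KO and 12.47 in WT tibialis anterior, 13.24 in KO and 13.49 in WT adult heart, and 12.04 in KO and 12.22 in WT P14 heart. The adult hearts stood above the other 4 arrays, 2.35-fold higher than P14 heart (log2 difference 1.23, SE 0.14, adjusted p = 0.00116), while tibialis anterior was 2.08-fold lower than adult heart (log2 difference -1.06, SE 0.14, adjusted p = 6.02e-04). Without the KO tibialis anterior array the tissue difference was -0.997, just under 2-fold, and with median centring it was -0.93 and the age difference 0.99. A second Oxct1 probe gave 1.38 for age and -1.42 for tissue. Acat1, the mitochondrial thiolase that splits acetoacetyl-CoA, read 7.02 in KO and 6.60 in WT tibialis anterior, 7.03 in KO and 6.66 in WT adult heart, and 5.97 in KO and 6.20 in WT P14 heart. Its tissue difference was -0.034, and its age difference of 0.76 just missed the test (adjusted p = 0.0535), reaching 1.06 and a call without the WT P14 heart array.

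The regulators differed among themselves. Ppargc1a, the coactivator, read 9.06 in KO and 9.02 in WT tibialis anterior, 10.24 in KO and 10.25 in WT adult heart, and 9.79 in KO and 10.03 in WT P14 heart. It was 2.31-fold lower in tibialis anterior (log2 difference -1.21, SE 0.14, adjusted p = 3.45e-04). The receptor Ppara read 4.54 in KO and 4.76 in WT tibialis anterior, 5.39 in KO and 5.84 in WT adult heart, and 5.28 in KO and 5.17 in WT P14 heart, was not detected in tibialis anterior, and was at least 1.32-fold lower there (adjusted p = 0.00705). The fitted difference of Ppara was -0.97, just under 2-fold. It passed 2-fold without the KO adult heart array (-1.16) and with median centring (-1.07). Esrra, the estrogen-related receptor alpha, read 10.28 in KO and 10.37 in WT tibialis anterior, 10.29 in KO and 10.35 in WT adult heart, and 10.22 in KO and 9.92 in WT P14 heart. Its tissue difference was 0.0060 with an SE of 0.15, and the tibialis anterior and adult heart values overlapped.

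Fewer members were called between the ages than between the tissues, and those higher in adult heart were a larger share than over all genes. At an adjusted p under 0.05 and at least 2-fold, 3 of 34 were higher in adult heart (Bdh1, Oxct1 and Lipe) and 0 were lower, against 3.63% and 2.81% of all genes. Without the fold requirement 7 were higher, against 7.54% of all genes, and 0 were lower, against 6.68%. The others were Lpl (log2 difference 0.92), Slc27a1 (0.84), Pnpla2 (0.77) and Echs1 (0.60). An unadjusted p under 0.05 was reached by 14 members, against 29% of all genes. The members' median was 0.16, against -0.011 over all genes. Both adult arrays lay above both P14 arrays for 17 members and below them for 7, against 26.9% and 26.1% of all genes. With median centring the median of all genes moved to -0.22, that of the members to -0.049, and the calls over all genes to 258 higher and 513 lower, against 373 and 289 here. Leaving out 1 array took Slc27a1 (1.07, without KO P14 heart), Pnpla2 (1.01, without KO adult heart) and Lpl (1.05, without WT adult heart) past 2-fold. Among the 9 genes from the acyl-CoA dehydrogenases to the thiolase, Echs1 alone passed the test. The 4 dehydrogenases differed by -0.46 (Acadl) to 0.18 (Acadm), Acaa2 by -0.42 (adjusted p = 0.134) and Hadh by -0.38 (adjusted p = 0.313). None of the 3 electron transfer genes passed the test.

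The lipid-handling genes that were higher in adult heart rose beside markers of fat. Lipe was 2.74-fold higher (log2 difference 1.45, SE 0.25, adjusted p = 0.00804), and the call was lost on the values the authors had processed (0.92), without background correction (0.79), with an offset of 50 (0.92) and, at 1.35 and 1.15, without the WT P14 or the KO adult heart array. On the adult heart arrays 6 of the 7 adipocyte list genes were detected, with summed intensities of 6764 in KO and 6530 in WT, against 4 detected in P14 heart, with 400.2 in KO and 351.8 in WT. Adipoq, the adipocyte hormone adiponectin, read 10.12 in KO and 9.64 in WT adult heart, against 5.59 in KO and 5.17 in WT P14 heart. Ucp1, the uncoupling protein of brown fat, read 10.41 in KO and 9.87 in WT adult heart and was not detected on the other 4 arrays. The rest of the brown fat list did not all follow it. Cidea read 11.29 in KO and 10.58 in WT adult heart, against 9.87 in KO and 9.28 in WT P14 heart. Cox7a1 and Cox8b read between 13.40 and 14.74 on all 6 arrays, and Elovl3 and Dio2 were not detected on any. In tibialis anterior the adipocyte list summed to 19562 in KO and 16525 in WT, most of it from Car3, which muscle also expresses (14.04 in KO and 13.95 in WT). The part of fat in the differences of Lipe, Lpl, Pnpla2, Slc27a1, Oxct1 and Bdh1 was not tested.

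**Figure D3:**
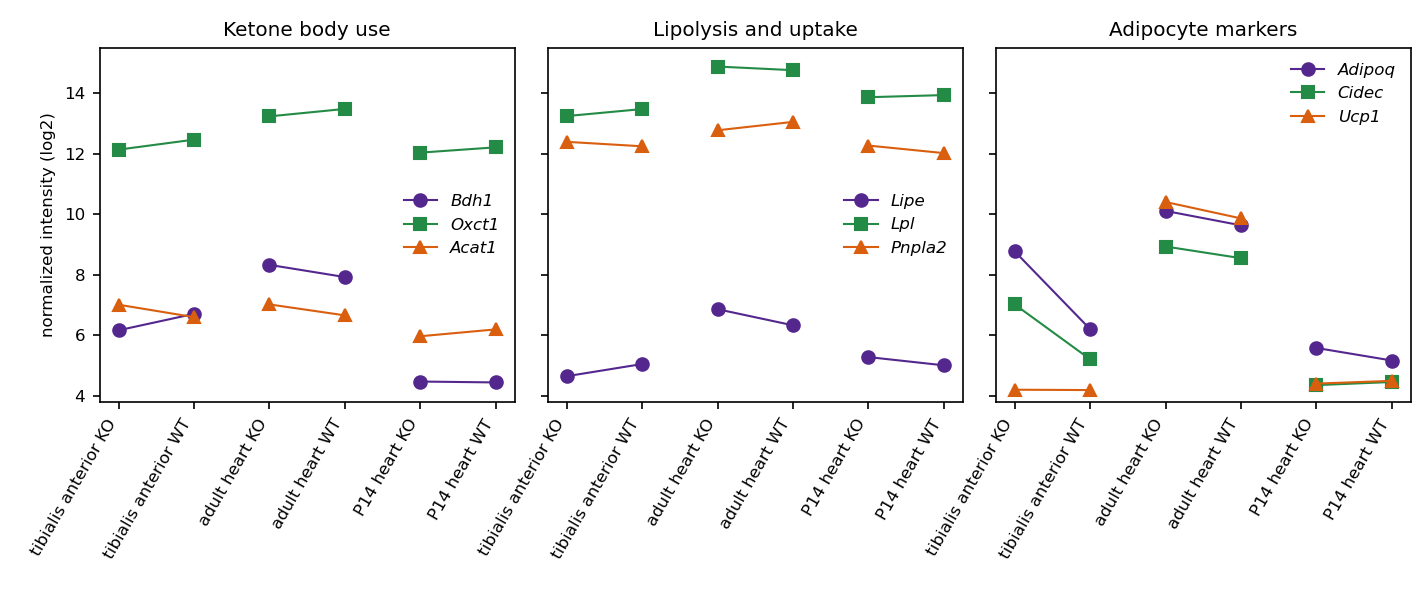
Normalized log2 intensity on each array (x axis) of 3 ketone genes on the left, of Lipe, Lpl and Pnpla2 in the middle and of 3 fat markers on the right, with lines joining the KO and WT array of a setting. Both adult heart arrays are the highest for Bdh1, Oxct1, Lipe, Lpl and Pnpla2, and also for Adipoq, Cidec and Ucp1. The fat markers drawn were picked from longer lists. Of the adipocyte genes not drawn, Scd1 and Plin1 were also highest in adult heart. Lep and Car3 were highest on the KO tibialis anterior array, and Retn was not detected.

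The promoter windows of the 2 ketone genes that changed with age are shown. So is that of Acadm, the 1 member whose window holds the motif of estrogen-related receptors. The part of these receptors in the differences of the members was not tested. The sequences are the 250 bases before the gene start, read along the gene strand, from RefSeq on GRCm38.p6, and Bdh1 has 2 annotated starts. Capitals mark the letters AAGGTCA or the reverse complement TGACCTT.
Acadm (chr3:153944644-153944893, minus strand): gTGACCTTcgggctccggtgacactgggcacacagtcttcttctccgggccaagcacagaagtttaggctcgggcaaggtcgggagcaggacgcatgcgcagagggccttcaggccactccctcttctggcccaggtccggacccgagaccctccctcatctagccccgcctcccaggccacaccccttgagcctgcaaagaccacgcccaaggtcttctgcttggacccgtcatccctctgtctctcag
Bdh1 (chr16:31422047-31422296, plus strand): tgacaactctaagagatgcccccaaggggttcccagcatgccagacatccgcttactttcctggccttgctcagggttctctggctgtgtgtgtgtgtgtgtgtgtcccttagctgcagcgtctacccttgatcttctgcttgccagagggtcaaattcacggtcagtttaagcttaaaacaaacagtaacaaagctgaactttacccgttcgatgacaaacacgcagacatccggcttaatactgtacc
Bdh1 (chr16:31428503-31428752, plus strand): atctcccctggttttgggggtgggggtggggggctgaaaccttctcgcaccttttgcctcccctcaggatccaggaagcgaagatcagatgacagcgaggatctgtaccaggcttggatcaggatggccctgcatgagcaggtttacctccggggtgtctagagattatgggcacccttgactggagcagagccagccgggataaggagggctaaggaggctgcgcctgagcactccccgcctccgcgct
Oxct1 (chr15:4026178-4026427, plus strand): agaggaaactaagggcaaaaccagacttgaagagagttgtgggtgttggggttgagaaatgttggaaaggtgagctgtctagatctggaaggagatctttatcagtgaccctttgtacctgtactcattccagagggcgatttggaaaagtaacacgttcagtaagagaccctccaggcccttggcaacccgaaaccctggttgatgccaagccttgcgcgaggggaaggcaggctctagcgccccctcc
A window was available for 27 of the 34 genes, 31 windows in all. The motif was found, on either strand, in 1 of the 31 windows (3.23%), against 4.08% of 32851 promoter windows of the same length. The shorter motif AGGTCA, which lies within it, was found in 4 (Acadm, Acadvl, Cd36 and Echs1), or 12.9%, against 14% of all windows. A match is a match of letters and does not show a binding site.

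No member was called between KO and WT. In the fit over the 3 settings 0 of 34 members were called in either direction (limma, adjusted p under 0.05), against 0.0195% of all genes called higher and 0.0487% called lower, and 3 members had an unadjusted p under 0.05, against 9.69% of all genes. The lowest adjusted p was 0.497, for Hadh, and the count of calls was 0 under every alternative that was run. The difference was below 0 for 22 members (52.7% of all genes). The median of all 34 was -0.059, against -0.014 over all genes. With median centring the members' median turned to 0.0061, against -0.0045 over all genes. In the fit the differences ran from -0.53 (Hadh) to 0.51 (Hadha). KO was below WT in all 3 settings for 11 members (18% of all genes) and above it in all 3 for 2 (14.6%). The 2 were Fabp3, higher by 0.24 in tibialis anterior, 0.30 in adult heart and 0.19 in P14 heart, and Eci1, higher by 0.035, 0.18 and 0.47 in the same settings. Named after their values were seen, the 11 included Oxct1 (-0.33, -0.25 and -0.17), Cpt1b (-0.17, -0.27 and -0.25), Cpt2 (-0.086, -0.36 and -0.44) and Etfdh (-0.12, -0.22 and -0.37). The other probes of Oxct1 and Cpt2 were also lower in KO in all 3 settings. The second Cpt1b probe, detected on all 6 arrays, was not: it gave -0.19 in tibialis anterior, 0.050 in adult heart and 0.063 in P14 heart. The 3 dim Etfdh probes each changed sign between settings.

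Within a setting each difference compares 1 KO with 1 WT array and has no test. No member reached 2-fold in any pair, while in P14 heart 0.236% of detected genes were at least 2-fold higher and 0.63% lower, in adult heart 1.27% and 0.516%, and in tibialis anterior 2.48% and 0.472%. KO was higher for 7 of 31 detected members in tibialis anterior (46.2% of all genes), with a median difference of -0.12, and for 11 of 31 when the mean of detected probes was used. It was higher for 12 of 34 in adult heart (45.8% of all genes), with a median of -0.086, and for 15 of 33 in P14 heart (50.1% of all genes), with a median of -0.060. The median bead standard error of a member's difference, which covers the reading of the beads and not the mice, was 0.056 in tibialis anterior, 0.058 in adult heart and 0.057 in P14 heart.

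In the hearts the largest differences belonged to the steps after the first dehydrogenation, and the 2 subunits of the trifunctional protein went opposite ways there. In tibialis anterior the members farthest from 0 were Bdh1 (-0.54), Eci2 (0.45) and Acat1 (0.41). Hadha was higher in KO by 0.91 in P14 heart and 0.80 in adult heart and differed by -0.19 in tibialis anterior. Hadhb differed by -0.56 in P14 heart, -0.22 in adult heart and -0.053 in tibialis anterior. Hadh differed by -0.62 in P14 heart and -0.88 in adult heart, with -0.081 in tibialis anterior. Each of Hadha and Hadhb has 1 probe, and the second Hadh probe was not detected on any array, so these differences have no second probe to set beside them. Acaa2 differed by -0.53 in adult heart on the probe used, and by -0.46, -0.57 and -0.062 on its 3 other probes.

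**Figure D4:**
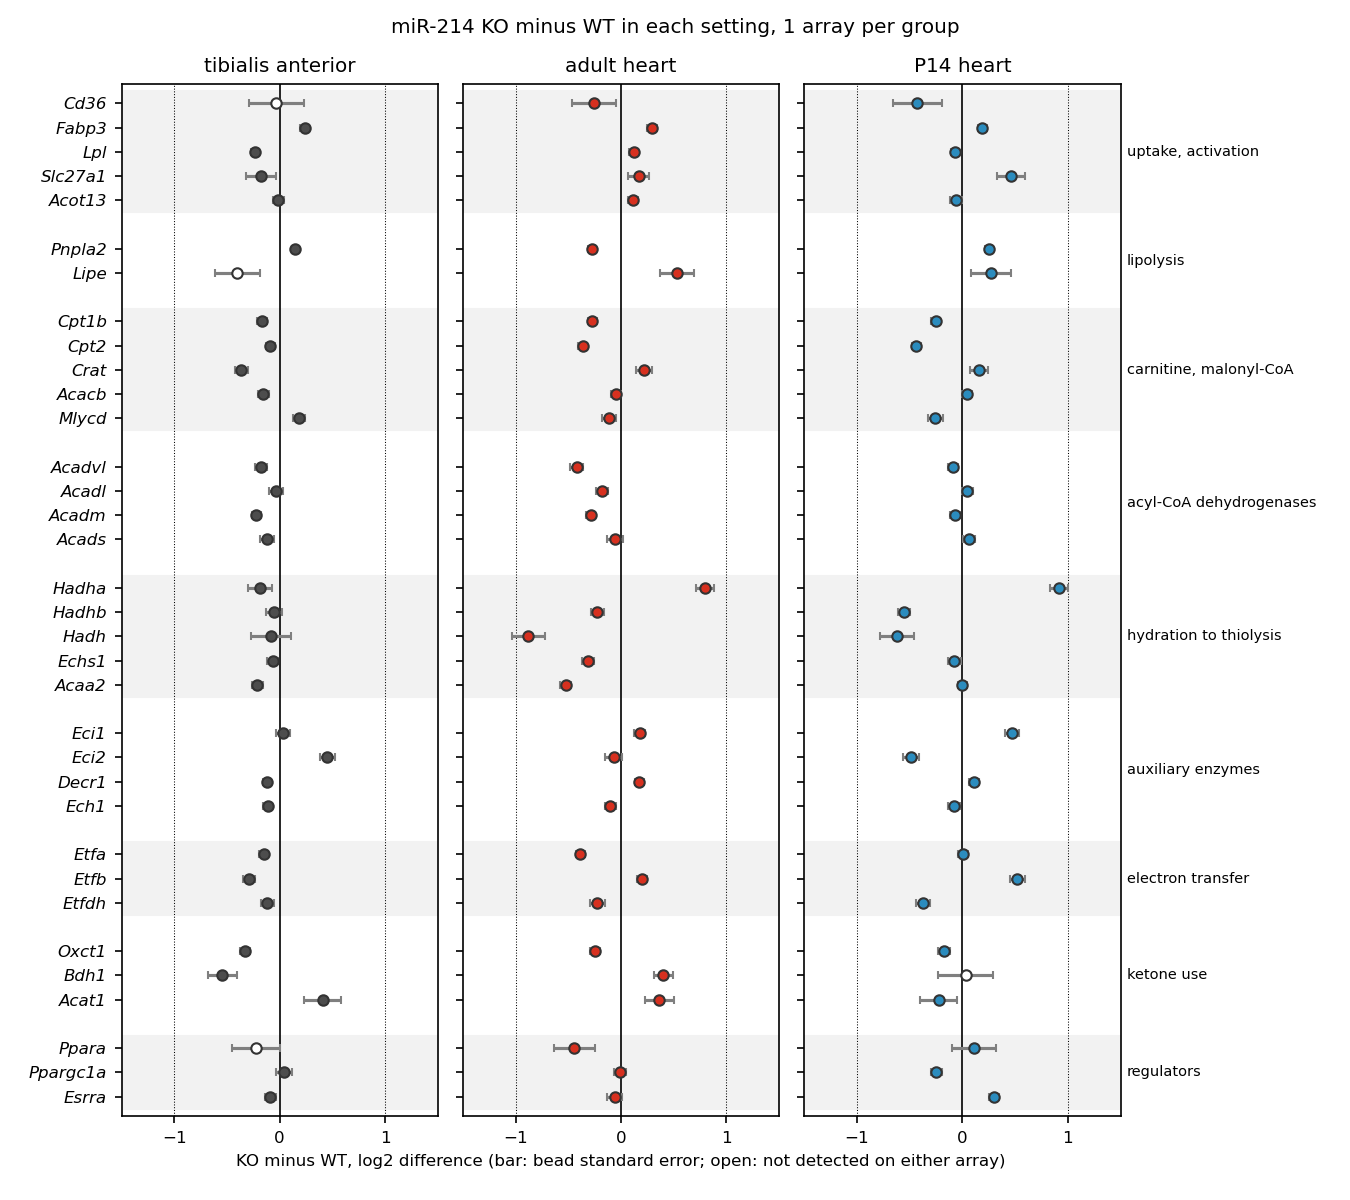
KO minus WT log2 difference of each gene (rows, by role) in tibialis anterior, adult heart and P14 heart, from 1 array per group, with the bead standard error as bars, dotted lines at 2-fold and open points for genes not detected on either array. No detected point reaches 2-fold, and Hadha and Hadh in the hearts lie farthest from 0.

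Elsewhere differences changed sign between settings or between probes. In electron transfer Etfb was higher in KO by 0.52 in P14 heart and 0.20 in adult heart and lower in tibialis anterior (-0.29), and its second probe gave 0.52, 0.34 and -0.11. Etfa differed by 0.0080 in P14 heart on the probe used, but by -0.53 and -0.33 on its 2 other probes. In the carnitine group Crat differed by 0.22 in adult heart, and by -0.66 and 0.070 on its other probes. Among regulators Esrra differed by 0.30 in P14 heart and -0.060 in adult heart, against 0.51 and 0.57 on its second probe. In ketone use Bdh1 differed by 0.40 in adult heart and -0.54 in tibialis anterior, and Acat1 by 0.36 and 0.41 there and by -0.23 in P14 heart. Over the 17 other probes the sign of the probe used was shared by 13 in tibialis anterior, 13 in adult heart and 11 in P14 heart. Acadl, the only member on chromosome 1, where the Dnm3 gene with the miR-214 locus lies, differed by -0.037 in tibialis anterior, -0.18 in adult heart and 0.047 in P14 heart. Its second probe detected on all 6 arrays gave 0.084, 0.24 and 0.011, of the opposite sign in both adult tissues.

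Other genes of the pathway that are not members were read from a list of 67, of which 61 were on the array and 51 entered the fit. In tibialis anterior against adult heart 11 of the 51 were called lower and 5 higher, against 10.6% and 8.46% of all genes. Their median was -0.45, against -0.052 over all genes. The lowest were Dgat2, which makes triglyceride (-3.16), Acss1, the mitochondrial acetyl-CoA synthetase (-3.09), and the cytosolic thioesterase Acot1 (-2.69). The highest were the mitochondrial carrier Ucp3 (2.73), the acyl-CoA synthetase Acsl6 (2.45) and the receptor Rxra (1.24). In adult against P14 heart 6 were called higher and 3 lower, against 3.63% and 2.81% of all genes. Peroxisomal Acaa1b (2.45), Acsl6 (2.11) and Dgat2 (1.90) led the higher ones. Acaa1b and Acsl6 were not detected on either P14 heart array, so their values are fitted differences from background and no lower bound was computed. Over the alternatives Acaa1b ran from 1.27 to 2.96 and Acsl6 from 1.04 to 2.26. The 3 lower were Acot1 (-1.25), Angptl4 (-1.11) and Acot2 (-1.01). The calls of Rxra, Angptl4 and Acot2 were lost under several alternatives. Rxra fell short of 2-fold without background correction (0.68), with median centring (0.87), on the values the authors had processed (0.79) and with an offset of 50 (0.79). It was 0.83 without the WT tibialis anterior array, 1.20 without the KO adult heart array (adjusted p = 0.0574) and 1.27 without the WT adult heart array (adjusted p = 0.0530). Angptl4 was -0.76 without the KO P14 array and -0.84 without the KO adult heart array, and -0.998 without background correction. Acot2 was -0.88 without background correction and -0.91 both on the values the authors had processed and with an offset of 50. It was -1.04 without the KO and -0.97 without the WT adult heart array, and -0.22 as the mean of its detected probes.

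Between the genotypes 1 of the 51 was called, higher in KO, and 0 lower, against 0.0195% and 0.0487% of all genes. Angptl4, a secreted inhibitor of Lpl and a known target of the Ppar receptors, read 8.36 in KO and 6.82 in WT tibialis anterior, 8.74 in KO and 7.46 in WT adult heart, and 10.26 in KO and 8.16 in WT P14 heart. KO was above WT in 3 of 3 settings, with a log2 difference of 1.64 in the fit (SE 0.17, adjusted p = 0.0294). The call held under 7 of 13 alternatives, and over all 13 the adjusted p of the fit ran from 9.05e-04 to 0.0855. It was lost without the adult heart pair (adjusted p = 0.0579), without background correction (0.0618) and with an offset of 50 (0.0701). The mean of detected probes (0.0596), no filter on dim genes (0.0615) and eBayes without a trend (0.0855) also lost it. Ucp3 read 10.15 in KO and 9.35 in WT tibialis anterior, 7.75 in KO and 6.28 in WT adult heart, and 8.33 in KO and 6.67 in WT P14 heart (log2 difference 1.31, adjusted p = 0.0809). Pdk4, the kinase that blocks pyruvate oxidation, read 13.43 in KO and 12.59 in WT tibialis anterior, 13.17 in KO and 10.94 in WT adult heart, and 12.93 in KO and 12.10 in WT P14 heart (1.30, adjusted p = 0.357). Both were higher in KO in 3 of 3 settings without passing the test, which Ucp3 passed under 4 of 13 alternatives, among them median centring (adjusted p = 0.00344) and leaving out the tibialis anterior pair (adjusted p = 0.0159), and Pdk4 under 1, median centring (adjusted p = 0.0146). The fat and hepatocyte genes that were higher on the KO tibialis anterior array are given above. The lowest were Etfbkmt, which methylates the Etfb protein (-0.43), Acadsb (-0.40) and Acss2 (-0.40), each with an adjusted p above 0.4. Within pairs, further extremes were Acadsb in P14 heart (-0.89), Etfbkmt (-0.79) and Acbd3 (-0.49) there, Acss2 (-0.48), Mgll (-0.40) and Prkaa2 (-0.37) in adult heart, and Acaa1b (1.77), Acsl3 (-0.69) and Rxra (-0.44) in tibialis anterior.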

How the data were processed

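Gene expression was measured on 6 bead arrays of Cy3-labelled total RNA, per the labels' protocols. The scanner table gives, per the file headers, a mean bead intensity with its standard error, the bead count and the detection p-value of every probe on every array, deposited with no background subtraction or normalization. The authors also deposited processed intensities, used as an alternative. No source used here states how these were normalized. The medians of their arrays were 54.3 to 54.4, and their rank correlation with the scanner values was 1. No value column was left without a sample.

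The values used here were computed with limma 3.58.1 in R 4.3.3 (data.table, version 1.17.8): normexp background correction with an offset of 16, quantile normalization and log2. The platform annotation names 1 gene for 34885 probes, several for 18 and none for 10378, and a newer annotation (GRCm38.p6) changed 0 symbols. Each gene was represented by its brightest probe. lmFit and eBayes with trend were run with terms for setting and genotype (2 residual degrees of freedom) and Benjamini-Hochberg adjustment over 10271 genes detected (p under 0.01) on at least 2 arrays. Calls required an adjusted p under 0.05, and between settings also 2-fold. There are no replicates within a group: p-values measure the spread of the genotype difference across settings, which may be technical. Within a pair no test was made. For members with a whole group not detected, folds are lower bounds against the higher of the dim value and the lowest detected signal of its array.

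The members, their grouping by role, the other pathway genes and the marker lists were chosen with earlier results of these data known. Members were described on every array if highest or lowest of their role in any pair, and other pathway genes if among the 3 highest or 3 lowest differences. Alternatives were no background correction, an offset of 50, median centring, the authors' values, other probe rules, detection filters and eBayes settings, and leaving out arrays or pairs.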

Additional observations from a re-analysis of the deposited data

Results flagged for a closer look

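For 2 genes both heart pairs differed one way between KO and WT and the tibialis anterior pair the other way, each by more than 2 bead standard errors. KO minus WT for Etfb, the beta subunit of the electron transfer flavoprotein, was -0.29 in tibialis anterior, 0.20 in adult heart and 0.52 in P14 heart. For Decr1, the dienoyl-CoA reductase, it was -0.12 in tibialis anterior, 0.17 in adult heart and 0.11 in P14 heart. Each value comes from 1 KO and 1 WT array, and the difference between the tissues was not tested. The rule was applied to the members only, and the share of all genes that meet it was not counted. Bead standard errors cover the reading of the beads and not the mice. With 1 array in each group, no group could be searched for a stray sample.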

How the results depend on the processing

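With the P14 pair left out 16 members were called lower in tibialis anterior, against 10.6% of all genes. With single arrays left out the members' median tissue difference ran from -1.09 (without KO adult heart) to -0.82 (without WT adult heart). Under the other alternatives with 1 value per gene 13 to 16 were called lower, against 5.66% to 15% of all genes. With every probe fitted on its own it was 24 of 55, against 9.73% of all probes. Without the tibialis anterior pair 3 members were called higher in adult than in P14 heart, against 388 of 10271 genes. With single arrays left out the members' median age difference ran from 0.078 to 0.24. The count called higher was 2 without background correction (198 of 10269 genes) and with median centring (258 of 10273). It was also 2 on the authors' values (235 of 10267) and with an offset of 50 (230 of 10269). By single probes it was 4 of 55 (497 of 15988 probes). It was 1 of 30 when only genes detected on all 6 arrays were kept (256 of 7830), since this drops Bdh1 and Lipe by construction. KO minus WT over the settings gave 0 calls throughout. The count of members higher in KO was 11 of 31 in tibialis anterior with the mean of detected probes. By single probes it was 11 of 49 in tibialis anterior, 19 of 55 in adult heart and 25 of 55 in P14 heart. The share of all genes or probes higher in KO was not counted under these alternatives. No gene that was called reversed its direction. Of the age calls, Bdh1 held in 14 of 14 alternatives, Oxct1 in 14 of 15 (0.99 with median centring) and Lipe in 9 of 14. Setting was a term of the fit, so KO and WT were compared within settings. No finer pairing was possible with 1 array in each group. Precision is limited by 1 array of pooled mice per group, and dim probes such as those of Cd36, Ppara and Lipe lie near background.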
